A study of Mus musculus with 24 samples.

Results

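The muscle coat of the mouse gut and the nerve net within it were followed through 33 genes, of 21441 listed in each expression table. They were chosen by name for their known roles, with earlier results of these data known, and comprised 15 smooth muscle genes, 2 genes of interstitial cells of Cajal, 13 genes of enteric neurons and 3 genes of enteric glia. All 33 symbols were found in the tables of the duodenum, ileum and colon. The study measured RNA from these 3 regions of wild type C57BL6J mice to look for targets of the vitamin D receptor. Animals labelled 3xD received 3 injections of calcitriol, the active hormone made from vitamin D, at 1 ng per g of body weight, given 48, 24 and 6 h before the end. Animals labelled minusD were vitamin D-deficient, and their treatment is given as none. The labels list 4 samples per group and region, of which 2 in each 3xD group and 1 in each minusD group were female. Their ages run from 10 to 14 with no unit stated.

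The outer wall of the gut carries 2 layers of smooth muscle, a circular and a longitudinal one, and a thin muscle layer lies under the mucosa. Contraction starts when calcium activates the kinase encoded by Mylk, which phosphorylates the myosin light chain encoded by Myl9. Interstitial cells of Cajal, which carry the receptor Kit and the chloride channel Ano1, set the slow electrical rhythm of the muscle. Enteric neurons, wrapped by glia, drive or relax it through acetylcholine and tachykinins on one side and nitric oxide and vasoactive intestinal peptide on the other. Levels of such genes in a sample also follow how much wall it holds, and in bulk tissue fewer cells of a type and less RNA per cell cannot be told apart.

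Levels are FPKM, the authors' read counts per length of transcript and depth, so genes can be compared with each other within a library. Values below are given for the 3xD libraries in the order 3xD 1, 3xD5711, 3xD5720 and 3xD5734, and for the minusD libraries in the order minusD5718, Vehicle 1, Vehicle 2 and Vehicle 3. The ileum has no minusD5718, which leaves 4 3xD and 3 minusD libraries there. Reads recovered from the steps of the FPKM values came to between 22323145 and 44505583 per library in the duodenum, between 19422707 and 43191604 in the ileum and between 14459914 and 29418797 in the colon. Some libraries stood apart in markers of other tissue. Summed stomach markers were 7375, 6933 and 5092 FPKM in the duodenal 3xD5711, 3xD5720 and 3xD5734 and 10680 FPKM in duodenal minusD5718, against 40.2 to 214 FPKM in the other 4 duodenal libraries. Summed pancreas markers were 31390 FPKM in colonic 3xD5720, against 165 to 6011 FPKM in the other 7 colons, and in the duodenum they ran from 1067 FPKM in 3xD5734 to 61390 FPKM in Vehicle 2. The library 3xD5720 also had the lowest summed epithelial markers of each region, at 5343 FPKM in the duodenum, 6356 FPKM in the ileum and 7644 FPKM in the colon.

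Smooth muscle genes are the textbook targets of serum response factor, which binds the CArG box. The 3 promoters shown are those of the smooth muscle genes in which such a box, or the near match described below, was found. The other smooth muscle genes with a promoter entry held neither and are not shown. The CArG box is CC, then 6 bases that are each A or T, then GG, and its reverse complement has the same form, so 1 search covers both strands. Each promoter runs from 250 bases before the annotated start to 50 bases after it (RefSeq, GRCm38.p6), and capitals mark a CArG box or a site with 1 G or C among the inner 6.
Acta2, chr19:34255324-34255623, minus strand: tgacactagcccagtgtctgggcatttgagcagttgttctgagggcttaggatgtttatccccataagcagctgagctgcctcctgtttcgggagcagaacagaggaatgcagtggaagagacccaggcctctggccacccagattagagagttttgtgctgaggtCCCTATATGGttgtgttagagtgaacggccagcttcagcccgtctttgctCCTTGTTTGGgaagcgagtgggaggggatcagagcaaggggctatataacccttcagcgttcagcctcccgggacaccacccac
Myl9, chr2:156775214-156775513, plus strand: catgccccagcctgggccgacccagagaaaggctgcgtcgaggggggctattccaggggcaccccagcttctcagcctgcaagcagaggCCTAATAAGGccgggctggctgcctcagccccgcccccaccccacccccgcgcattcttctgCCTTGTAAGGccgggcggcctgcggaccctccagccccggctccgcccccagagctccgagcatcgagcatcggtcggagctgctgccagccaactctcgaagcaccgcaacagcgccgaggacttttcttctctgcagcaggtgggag
Synm, chr7:67759693-67759992, minus strand: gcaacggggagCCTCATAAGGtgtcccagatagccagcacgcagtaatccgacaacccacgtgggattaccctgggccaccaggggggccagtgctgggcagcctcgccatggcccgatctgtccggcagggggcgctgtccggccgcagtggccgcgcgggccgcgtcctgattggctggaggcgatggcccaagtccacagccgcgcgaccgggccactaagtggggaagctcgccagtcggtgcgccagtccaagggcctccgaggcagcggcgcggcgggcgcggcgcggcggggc
In Myl9, which encodes the regulatory light chain of smooth muscle myosin, a full box starts 161 bases before the start and a site with 1 inner G or C starts 99 bases before it. Acta2, the alpha actin of smooth muscle, has sites with 1 inner G or C that start 84 and 34 bases before its start, and Synm, an intermediate filament protein, has 1 that starts 239 bases before it. Promoter entries matched 12 of the 15 smooth muscle genes and 26 of the 33 genes in all. A full box lay in 1 of these 12 smooth muscle genes, and in 1.81% of the 27025 genes with an entry. With 1 inner G or C allowed it was 3 of 12, and 11.3% of all genes. Of the 10 neuron genes with an entry, Elavl4 held a full box, 1 site that lies in 2 of its promoters because they overlap. It starts 30 bases before the start of one and 46 bases before that of the other.

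All 33 genes had a higher mean level in the colon than in the duodenum, as did 75.1% of all genes tested. All 33 had a higher one in the ileum than in the duodenum, as did 68.6% of all genes tested. The colon mean was above the ileum mean for 32 of 33, Ret being the exception, and for 73.6% of all genes tested. The median ratio of colon over duodenum was 6.09 over the 33 genes and 1.40 over all genes tested. It was 5.56 for smooth muscle, 13.3 for the interstitial cell pair, 6.24 for neurons and 6.55 for the 3 glial genes. Over related genes outside the 33 it was lower, at 3.13 for 32 smooth muscle genes and 2.48 for 6 interstitial cell genes. It was 4.84 for 31 other neuron genes and 2.00 for 12 other glial genes. Among marker lists of other cells, it was 4.59 for 11 fibroblast genes, 6.32 for 8 adipocyte genes, 1.51 for 13 epithelial genes and 0.183 for 12 pancreas genes. Their part in the regional levels was not tested. Every colon library lay above every duodenal library for 26 of the 33 genes, as it did for 29.7% of all genes tested. The same held for ileum over duodenum in 19 of 33 genes (10.7% of all genes) and for colon over ileum in 8 of 33 (16.7% of all genes). For colon over ileum, 1 of the 15 smooth muscle genes, Tpm2, was among the 8. The tables of the 3 regions were normalized separately, so levels across regions are set side by side and were not tested.

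**Figure D1:**
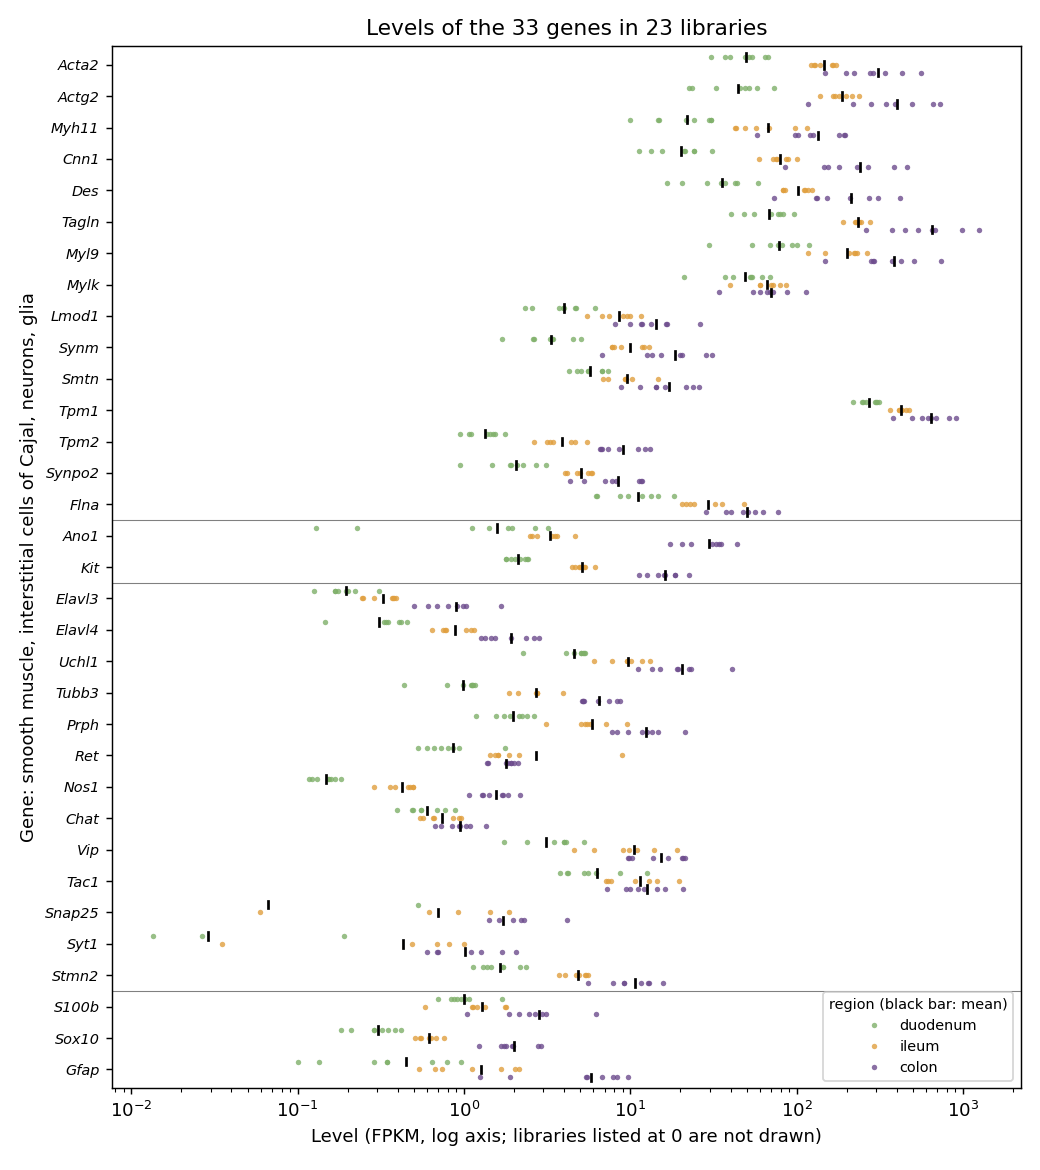
Level of each of the 33 genes (FPKM, log axis) in 8 duodenal, 7 ileal and 8 colonic libraries, 1 point per library, with a black bar at the mean of a region; libraries listed at 0 are not drawn but enter the mean. For most genes the colon points lie to the right of the duodenal ones, while those of Mylk and Chat overlap.

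Among the 15 smooth muscle genes, Tpm1 had the highest mean in the duodenum and ileum and Tagln in the colon. Tagln, the actin-binding protein transgelin, averaged 68.6, 233 and 649 FPKM in the duodenum, ileum and colon. Tpm1, a tropomyosin, averaged 273, 423 and 638 FPKM, far above its relative Tpm2 at 1.34, 3.86 and 9.03 FPKM. Actg2, the gamma actin of visceral smooth muscle (NCBIM37 chr6:83462899-83486259), stood at 73.5, 57.5, 22.6 and 48.6 FPKM in the 3xD duodena, against 23.4, 32.8, 51.4 and 45.8 FPKM in the minusD duodena. Its values were 215, 198, 164 and 238 FPKM in the 3xD ilea, against 170.0, 179 and 138 FPKM in the minusD ilea. In the colon it reached 724, 391, 116 and 344 FPKM in the 3xD colons, against 279.6, 217, 656 and 493 FPKM in the minusD colons. The 3xD and minusD values of Actg2 overlapped in all 3 regions, and the 3xD colons held both the highest and the lowest colon value.

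Acta2 was present at 67.0, 54.1, 30.3 and 52.0 FPKM in the 3xD duodena, against 37.0, 39.8, 64.4 and 49.0 FPKM in the minusD duodena. It stood at 163, 164, 127 and 122 FPKM in the 3xD ilea, against 139, 171 and 129 FPKM in the minusD ilea. Its colon values were 557, 340.2, 149 and 287 FPKM in the 3xD colons, against 220.0, 198, 428 and 277 FPKM in the minusD colons. Again the 3xD colons 3xD 1 and 3xD5720 lay at the 2 ends of the colon range and the groups overlapped.

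Myh11, the smooth muscle myosin heavy chain, was measured at 29.6, 24.0, 9.97 and 14.8 FPKM in the 3xD duodena, against 14.6, 30.4, 30.4 and 21.5 FPKM in the minusD duodena. Its ileal values were 68.1, 57.2, 43.2 and 42.8 FPKM in the 3xD ilea, against 97.2, 115 and 48.6 FPKM in the minusD ilea. Colons had 194, 178, 57.6 and 124 FPKM in the 3xD colons, against 102, 120.2, 193 and 97.9 FPKM in the minusD colons. In the ileum 2 of the 3 minusD libraries, Vehicle 1 and Vehicle 2, exceeded all 3xD libraries, while Vehicle 3 lay inside the 3xD range.

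Des, the muscle intermediate filament desmin, gave 58.4, 36.8, 20.3 and 35.2 FPKM in the 3xD duodena, against 16.6, 28.8, 42.6 and 43.9 FPKM in the minusD duodena. It gave 112, 82.6, 83.2 and 118 FPKM in the 3xD ilea, against 111, 123 and 84.8 FPKM in the minusD ilea. It was highest in the colon, at 420.0, 210.1, 72.8 and 152 FPKM in the 3xD colons, against 132, 129.7, 307 and 273 FPKM in the minusD colons. The reads of Des, Tagln, Smtn and Uchl1 are uncertain in part, since exons of a gene on the other strand overlap each of them and the sources do not state whether the counting used strand.

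The steps between regions differed in size within the muscle list. Cnn1, the actin-binding calponin, had the largest ratio of colon over duodenum among the 15 muscle genes at 11.8, with means of 20.2, 79.7 and 239 FPKM in the duodenum, ileum and colon. Mylk, the light chain kinase, had the smallest at 1.43, with means of 48.8, 66.7 and 69.6 FPKM, and its libraries overlapped between all pairs of regions. Smtn, a contractile-type smooth muscle protein, and Tpm1 had ratios of 2.95 and 2.34. Lmod1, which nucleates actin filaments, Synpo2, which bundles actin, and Flna, an actin cross-linker found in many cell types, lay between at 3.55, 4.10 and 4.52. Among other smooth muscle genes, 28 of 32 had a higher mean in the colon than in the duodenum (75.1% of all genes tested), with a median ratio of 3.13.

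Both genes of interstitial cells of Cajal were set apart in the colon from the other regions. Ano1 (NCBIM37 chr7:151774454-151937879) was at 1.83, 3.20, 0.227 and 0.130 FPKM in the 3xD duodena, against 2.67, 1.42, 1.95 and 1.12 FPKM in the minusD duodena. It was at 3.38, 3.62, 2.75 and 2.57 FPKM in the 3xD ilea, against 3.51, 4.62 and 2.48 FPKM in the minusD ilea. In the colon it was at 34.9, 30.8, 17.4 and 20.5 FPKM in the 3xD colons, against 32.7, 43.5, 34.2 and 23.2 FPKM in the minusD colons. The colon mean of Ano1 was 9.05 times the ileum mean, the largest such ratio of the 33 genes, while duodenal 3xD5720 and 3xD5734 stood far below the other duodenal libraries.

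Kit, the receptor tyrosine kinase of interstitial cells and also of mast cells, was at 2.02, 2.40, 1.93 and 1.79 FPKM in the 3xD duodena, against 2.43, 2.31, 2.17 and 1.78 FPKM in the minusD duodena. It was at 4.48, 5.32, 5.24 and 4.89 FPKM in the 3xD ilea, against 6.11, 4.95 and 4.63 FPKM in the minusD ilea. It was at 12.7, 18.7, 15.9 and 22.4 FPKM in the 3xD colons, against 18.4, 14.7, 16.0 and 11.2 FPKM in the minusD colons. The highest library of Kit was 1.36 times the lowest in both the duodenum and the ileum and 2.00 times in the colon, and its colon mean was 3.20 times its ileum mean. Over 6 other genes assigned to interstitial cells the median ratio of colon over ileum was 1.41.

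Pan-neuronal genes were low in the duodenum and several times higher in the colon. Elavl4 (HuD), an RNA-binding protein of neurons, was at 0.456, 0.408, 0.421 and 0 FPKM in the 3xD duodena, against 0.348, 0.145, 0.341 and 0.332 FPKM in the minusD duodena. It was at 1.15, 0.779, 1.03 and 0.745 FPKM in the 3xD ilea, against 1.10, 0.769 and 0.638 FPKM in the minusD ilea. It was at 2.63, 1.34, 1.45 and 2.81 FPKM in the 3xD colons, against 1.26, 1.90, 2.37 and 1.54 FPKM in the minusD colons. Every colon library exceeded every ileal one for Elavl4, and every ileal one exceeded every duodenal one. Prph, the intermediate filament peripherin of peripheral neurons, had 2.38, 1.89, 2.15 and 2.22 FPKM in the 3xD duodena, against 1.18, 1.74, 2.65 and 1.55 FPKM in the minusD duodena. Prph had 5.73, 5.33, 5.08 and 3.10 FPKM in the 3xD ilea, against 7.15, 9.54 and 5.46 FPKM in the minusD ilea. Prph had 21.2, 12.5, 7.77 and 13.6 FPKM in the 3xD colons, against 9.69, 11.8, 14.6 and 8.28 FPKM in the minusD colons. For Prph the colon and ileum overlapped and both exceeded the duodenum. The remaining pan-neuronal genes Uchl1, Tubb3, Stmn2 and Elavl3 had ratios of colon over duodenum of 4.46, 6.58, 6.42 and 4.61.

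Transmitter genes of the neurons differed unevenly between regions. Nos1, the neuronal nitric oxide synthase, was at 0.153, 0.121, 0.151 and 0.169 FPKM in the 3xD duodena, against 0.130, 0.158, 0.183 and 0.116 FPKM in the minusD duodena. It was at 0.472, 0.384, 0.461 and 0.358 FPKM in the 3xD ilea, against 0.491, 0.495 and 0.289 FPKM in the minusD ilea. It was at 1.70, 1.41, 1.29 and 1.72 FPKM in the 3xD colons, against 1.30, 1.83, 2.18 and 1.07 FPKM in the minusD colons. Its means of 0.148, 0.421 and 1.56 FPKM give a ratio of colon over duodenum of 10.6, with no overlap between regions. Chat, the acetylcholine-making enzyme, which is also active in tuft cells of the epithelium, was at 0.885, 0.766, 0.551 and 0.548 FPKM in the 3xD duodena, against 0.688, 0.397, 0.492 and 0.484 FPKM in the minusD duodena. It was at 0.647, 0.931, 0.660 and 0.569 FPKM in the 3xD ilea, against 0.963, 0.853 and 0.546 FPKM in the minusD ilea. It was at 1.35, 1.08, 0.666 and 0.928 FPKM in the 3xD colons, against 0.850, 0.940, 1.03 and 0.728 FPKM in the minusD colons. The regional means of Chat, 0.601, 0.739 and 0.947 FPKM, give a ratio of 1.58 and their libraries overlap throughout.

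Vip, the relaxing peptide, was at 3.98, 5.23, 3.49 and 4.00 FPKM in the 3xD duodena, against 0, 1.73, 2.40 and 4.13 FPKM in the minusD duodena. Vip was at 6.04, 10.9, 19.1 and 13.8 FPKM in the 3xD ilea, against 4.57, 9.04 and 9.87 FPKM in the minusD ilea. Vip was at 20.4, 13.7, 10.2 and 16.8 FPKM in the 3xD colons, against 9.69, 9.84, 20.8 and 21.2 FPKM in the minusD colons. The value of 0 in duodenal minusD5718 rests on 0 recovered reads, and the other 7 duodenal libraries ran from 1.73 to 5.23 FPKM. Tac1, which encodes substance P and is also made by endocrine cells of the epithelium, averaged 6.31, 11.4 and 12.7 FPKM in the duodenum, ileum and colon. Snap25 and Syt1, proteins of the release machinery for synaptic vesicles, were listed at 0 in part of the libraries. Snap25 was at 0 in 7 of 8 duodena, 2 of 7 ilea and 2 of 8 colons, and Syt1 in 5, 2 and 1 of them. Ret, the receptor for glial cell line-derived neurotrophic factor, stood at 1.61, 1.60, 8.89 and 1.87 FPKM in the 3xD ilea, against 2.13, 1.53 and 1.43 FPKM in the minusD ilea. Without ileal 3xD5720, at 8.89 FPKM, the ileal values of Ret ran from 1.43 to 2.13 FPKM, which overlaps the colon range of 1.37 to 2.12 FPKM.

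The 3 glial genes followed the same order of regions in their means. S100b, a calcium-binding protein of glia, was at 1.68, 0.903, 1.02 and 0.697 FPKM in the 3xD duodena, against 0.839, 1.07, 0.869 and 0.962 FPKM in the minusD duodena. It was at 1.77, 1.14, 0.584 and 1.11 FPKM in the 3xD ilea, against 1.20, 1.34 and 1.79 FPKM in the minusD ilea. It was at 6.24, 3.12, 1.04 and 2.92 FPKM in the 3xD colons, against 2.47, 1.87, 2.67 and 2.14 FPKM in the minusD colons. Sox10, the transcription factor of the glial lineage, was at 0.324, 0.289, 0.348 and 0.182 FPKM in the 3xD duodena, against 0.419, 0.286, 0.386 and 0.209 FPKM in the minusD duodena. It was at 0.544, 0.506, 0.554 and 0.676 FPKM in the 3xD ilea, against 0.755, 0.613 and 0.634 FPKM in the minusD ilea. It was at 1.67, 2.91, 1.73 and 1.95 FPKM in the 3xD colons, against 1.22, 2.77, 1.98 and 1.78 FPKM in the minusD colons. Sox10 libraries did not overlap between any pair of regions, while S100b libraries overlapped between all pairs. Gfap, the glial intermediate filament, was at 1.89, 7.82, 5.49 and 8.36 FPKM in the 3xD colons, against 1.24, 9.64, 5.42 and 6.72 FPKM in the minusD colons. Colonic 3xD 1 and minusD5718 lay well below the other 6 colons for Gfap, and these 2 do not share a group.

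**Figure D2:**
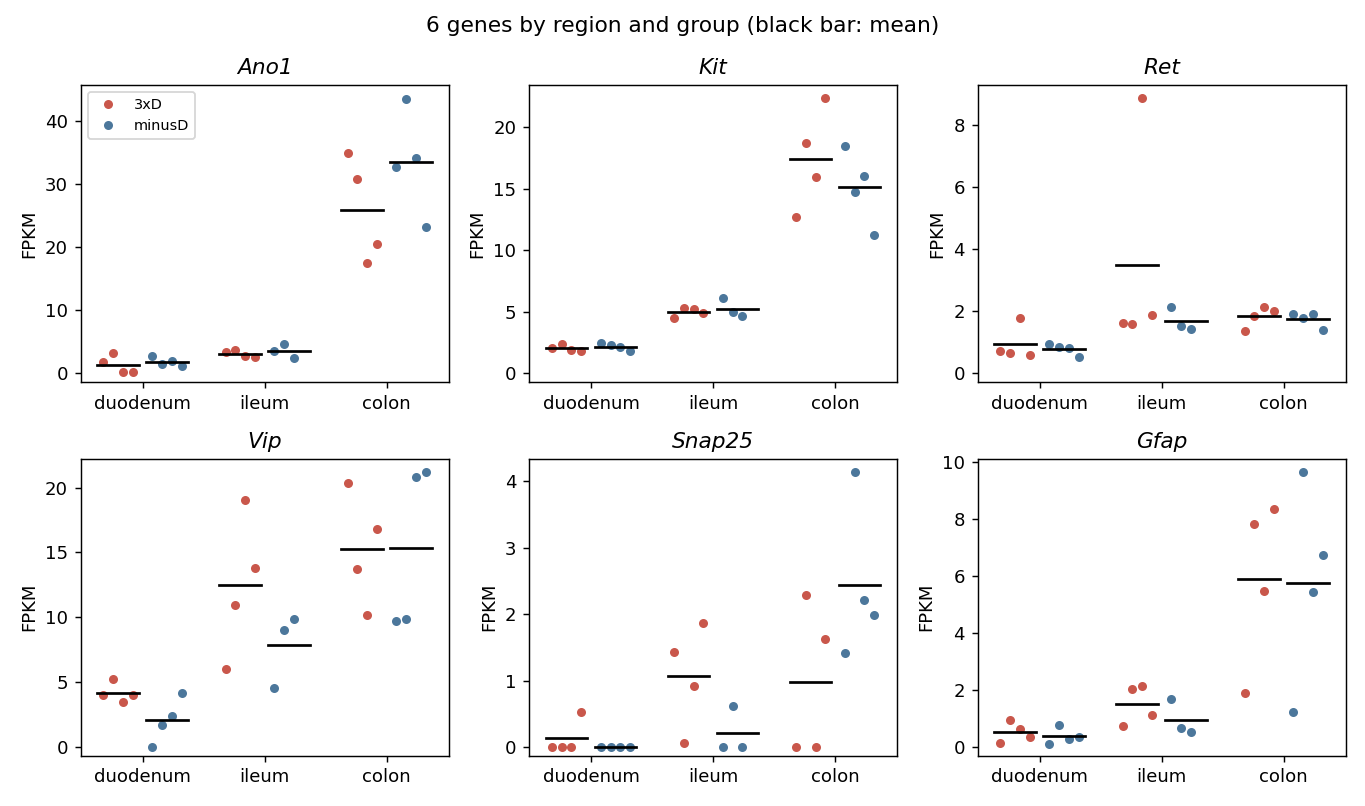
FPKM of 6 genes in the duodenum, ileum and colon, 1 point per library, with 3xD left of minusD in each region and a black bar at the group mean. Ano1 and Kit stand apart in the colon, ileal 3xD5720 stands apart for Ret at 8.89 FPKM, and Snap25 is listed at 0 in colonic 3xD 1 and 3xD5720.

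Summed levels of smooth muscle genes differed widely between libraries of 1 group. Summed over the 15 genes, the colon held 5531, 3314, 1365 and 2782 FPKM in the 3xD libraries, against 2266, 2193, 4539 and 3201 FPKM in the minusD libraries. The ileum held 1761, 1545, 1253 and 1537 FPKM in the 3xD libraries, against 1627, 1817 and 1458 FPKM in the minusD libraries. The duodenum held 885, 662, 430.1 and 651 FPKM in the 3xD libraries, against 569.6, 599, 789.5 and 748 FPKM in the minusD libraries. In both the colon and the duodenum the 3xD group thus contained the library with the highest and the library with the lowest sum of these 15 genes. Much of the duodenal sum was Tpm1, which gave 218 FPKM of it in 3xD5720 and 300 FPKM in minusD5718.

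The library 3xD 1 was the highest for 13 of 15 muscle genes in the colon and for 11 of 15 in the duodenum. The library 3xD5720 was the lowest for 14 of 15 in the colon, 11 of 15 in the duodenum and 6 of 15 in the ileum. In the ileum Vehicle 2 was the highest for 10 of 15. Colonic Actg2 differed 6.23 times between its highest and lowest library, and the median over the 15 genes was 3.38 times in the colon, 2.95 in the duodenum and 1.72 in the ileum. The median SD within groups, on the log2(FPKM + 1) scale, was 0.64 for muscle genes in the colon, 0.45 in the duodenum and 0.27 in the ileum, against 0.25, 0.22 and 0.24 for all genes tested. All 15 muscle genes exceeded the all-gene median SD in the colon, 13 of 15 in the duodenum and 9 of 15 in the ileum. Other lists also differed between the colons. Summed fibroblast markers were 846, 696, 523 and 642 FPKM in the 3xD colons, against 448, 509.8, 764 and 692 FPKM in the minusD colons. Summed epithelial markers were 12780, 8147, 7644 and 9584 FPKM in the 3xD colons, against 10710, 10240, 9863 and 9865 FPKM in the minusD colons. The colon with the highest muscle sum, 3xD 1, was also the highest for both lists, while the lowest fibroblast sums were in minusD5718 and Vehicle 1. The part of these lists in the muscle values was not tested.

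**Figure D3:**
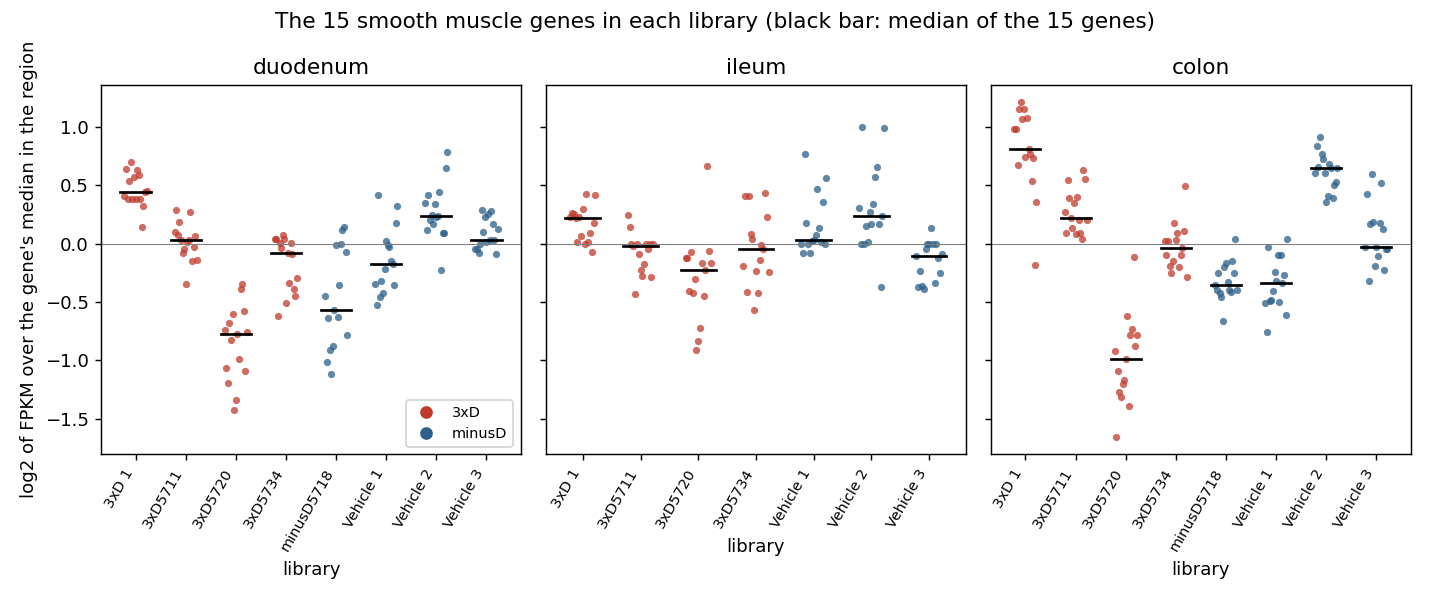
The 15 smooth muscle genes in each library, as log2 of FPKM over the gene's median in that region, with 3xD libraries (red) left of minusD libraries (blue) and a black bar at the median of the 15 genes. In the colon 3xD 1 and Vehicle 2 stand high and 3xD5720 stands low, and the 3xD libraries span the whole range of the minusD ones.

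Neuron genes followed muscle genes across colons but not in every library. The 10 neuron genes of the colon that passed the level filter with no listed 0 were set against the 15 muscle genes as a difference of mean log2(FPKM + 1). That difference was -2.97 in colonic 3xD5720 and between -4.09 and -3.45 in the other 7 colons. In the ileum, over 8 neuron genes, it was -2.39 in 3xD5720 and between -3.34 and -2.96 in the other 6 libraries. In the duodenum, over 5 neuron genes, it was -1.57 in 3xD5720 and between -2.78 and -2.47 in the other 7 libraries. The library numbered 3xD5720 thus had the highest difference of neuron minus muscle genes in each region. Ret, Vip and Tac1 were high in its ileum and Tac1 in its duodenum. Ret, below the level filter, and Vip, with a listed 0, are not among the 5 duodenal genes. Leaving out Ret, Vip and Tac1 therefore removes Tac1 alone in the duodenum. Without Ret, Vip and Tac1, left out after their values were seen, the difference in 3xD5720 was -2.002 in the duodenum (-2.99 to -2.59 in the other 7 libraries), -3.05 in the ileum (-3.64 to -3.14 in the other 6) and -3.24 in the colon (-4.17 to -3.49 in the other 7). Ileal 3xD5720 was not the highest library for Uchl1, Prph, Stmn2, Tubb3 or Elavl4. Duodenal 3xD5720 was the highest for Tac1, at 12.6 FPKM, and Tubb3, at 1.16 FPKM. It was not the highest for Uchl1 or Prph, and was the lowest for Stmn2, at 1.14 FPKM. Summed other enteric neuron genes were lowest in 3xD5720 in the duodenum, at 17.5 FPKM, and in the colon, at 62.3 FPKM. In ileal 3xD5720 that sum was 59.95 FPKM, within a range of 40.5 to 65.7 FPKM over the ilea. The log2(FPKM + 1) scale understates changes of low genes, so a library low in both sets can have a higher difference. Colonic 3xD5720 had the lowest muscle mean, 5.42, and also the lowest neuron mean, 2.45. The colons with the highest muscle means, 3xD 1 and Vehicle 2, had the lowest differences, -4.09 and -4.03. The part of the scale in these differences was not tested. Whether equal numbers in different regions mark the same mouse is not stated in the labels.

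**Figure D4:**
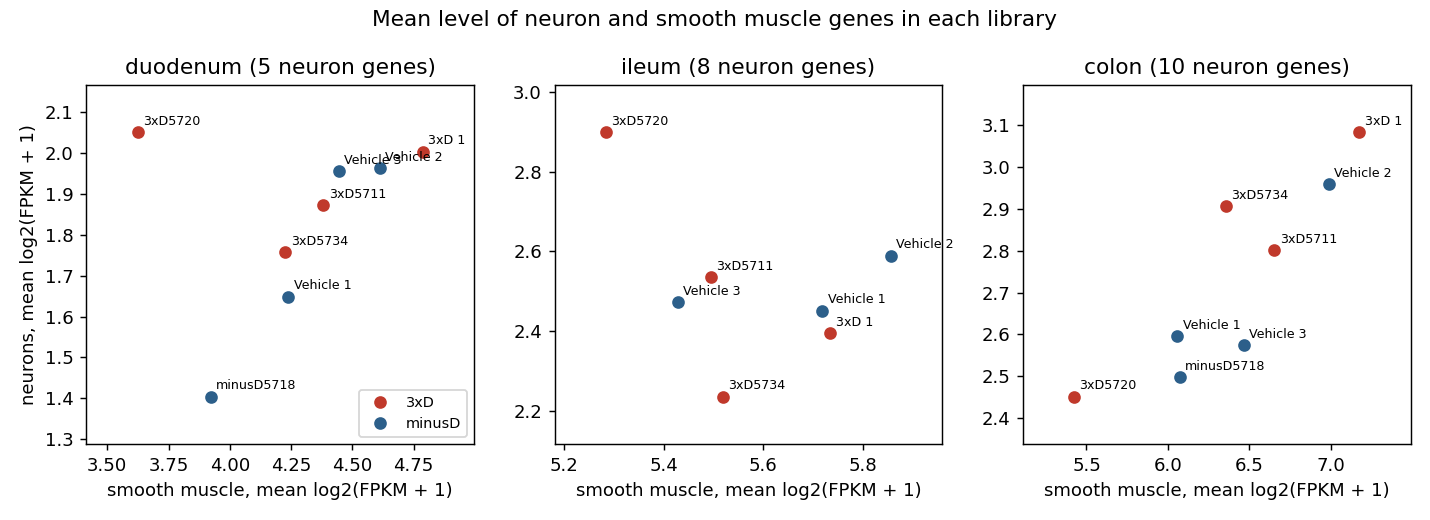
Mean log2(FPKM + 1) of neuron genes against that of the 15 smooth muscle genes, 1 point per library, 3xD in red and minusD in blue. In the ileum and duodenum 3xD5720 lies at the upper left, with the lowest muscle mean and the highest neuron mean. Ret, Vip and Tac1 add to its ileal neuron mean and Tac1 to its duodenal one. Its duodenal neuron mean includes the highest Tac1 value and the lowest Stmn2 value of that region. In the colon 3xD5720 lies at the lower left.

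Calcitriol against deficiency gave no called change in any of the 33 genes in any region. Each gene that reached 1 FPKM in 3 or more libraries of a region was tested (limma on log2(FPKM + 1), Benjamini-Hochberg over all genes), and 24 of the 33 passed in the duodenum, 27 in the ileum and 32 in the colon. The threshold of adjusted p under 0.05 was met by 0 of 24, 0 of 27 and 0 of 32 of them, and by 0.0256%, 0% and 0% of all 11734, 12149 and 12746 genes tested. With a background at or near 0, a count of 0 does not set these genes apart from others. Below the level filter were Elavl3, Nos1, Chat, Snap25, Syt1 and Sox10 in the duodenum and ileum, also Elavl4, Ret and Gfap in the duodenum, and Elavl3 in the colon. At an unadjusted p under 0.05 there were 1 of 24 members in the duodenum, 2 of 27 in the ileum and 0 of 32 in the colon, against 9.4%, 5.84% and 5.85% of all genes. On reads recovered from the FPKM values, limma's voom called 0 members and 0 of all genes in each region, with 0 of 19, 1 of 19 and 1 of 24 members at an unadjusted p under 0.05, against 8.74%, 5.32% and 5.88% of all genes.

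Muscle and neuron genes differed in both directions in each region. Smooth muscle genes had a median log2 difference, 3xD minus minusD, of -0.08 in the duodenum (6 of 15 positive), -0.12 in the ileum (5 of 15) and 0.00 in the colon (8 of 15), where quantile normalization gave a median of -0.14 and voom one of -0.01. Neuron genes had medians of 0.20 over 6 genes in the duodenum (5 positive), -0.02 over 8 in the ileum (4 positive) and 0.10 over 12 in the colon (9 positive). Both interstitial cell genes were negative in the duodenum and ileum and 1 of 2 in the colon, while 1 of 1, 1 of 2 and 3 of 3 glial genes tested were positive in the duodenum, ileum and colon. All genes tested had medians of 0.01, 0.01 and -0.01, with 51.9%, 51.7% and 47.3% of them positive. For colonic Actg2 the difference was -0.20 ± 0.55 (SE; limma, adjusted p = 0.971) with a 95% interval of -1.43 to 1.04, so changes of more than 2 times in either direction lie within it. In the ileum, where the spread of muscle genes was smallest, the interval for Acta2 ran from -0.42 to 0.37 around -0.03.

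In the duodenum the 2 smallest p-values belonged to neuron genes. Vip (NCBIM37 chr10:4698927-4707323) averaged 4.17 ± 0.743 FPKM in the 3xD duodena and 2.07 ± 1.71 FPKM in the minusD duodena (SD, n = 4 and n = 4). The difference was 0.97 ± 0.43 (SE; limma, adjusted p = 0.528), with an unadjusted p of 0.0498. The groups overlapped through Vehicle 3, and the listed 0 of minusD5718 enters the minusD mean. It was 0.50 without minusD5718, 0.46 with serial libraries alone and 2.38 with 4-digit libraries alone, and 1.84 both with a pseudocount of 0.1 and with voom. Uchl1, the neuronal deubiquitinase PGP9.5, stood at 5.05, 5.32, 5.16 and 5.08 FPKM in the 3xD duodena, against 2.27, 4.12, 4.61 and 5.25 FPKM in the minusD duodena. The 3xD values of Uchl1, from 5.05 to 5.32 FPKM, lay at the upper end of the minusD range. Uchl1 had a difference of 0.13 without minusD5718, and with all libraries it was 0.32 ± 0.19 (SE; limma, adjusted p = 0.580). Among muscle genes the largest difference in size was that of Mylk at -0.50 ± 0.29 (SE; limma, adjusted p = 0.580).

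In the ileum the 2 smallest p-values were on the lower side. Lmod1 (NCBIM37 chr1:137221384-137264642) stood at 9.08, 7.48, 5.51 and 6.75 FPKM in the 3xD ilea, against 9.57, 11.5 and 9.95 FPKM in the minusD ilea. Every 3xD ileum lay below every minusD ileum, the lone such member of 27, against 3.21% of all genes that did so in this direction. The difference was -0.48 ± 0.17 (SE; limma, adjusted p = 0.706). Prph averaged 4.81 ± 1.17 FPKM in the 3xD ilea and 7.38 ± 2.04 FPKM in the minusD ilea (SD, n = 4 and n = 3), a difference of -0.53 ± 0.23 (SE; limma, adjusted p = 0.706). Myh11, at -0.64 ± 0.30 (SE; limma, adjusted p = 0.706), had a larger difference than both with a wider spread, while Actg2, at 0.32 ± 0.17 (SE; limma, adjusted p = 0.706), pointed the other way. In this region 3 of the 4 3xD libraries and none of the minusD libraries carry 4-digit numbers, so treatment and numbering can hardly be told apart there.

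In the colon the 2 smallest p-values were those of Snap25 and Tac1. Snap25 (NCBIM37 chr2:136539189-136608164) was listed at 0, 2.29, 0 and 1.63 FPKM in the 3xD colons, against 1.41, 4.13, 2.21 and 1.98 FPKM in the minusD colons. The 2 3xD colons at 0, 3xD 1 and 3xD5720, rest on 0 recovered reads, while the others ranged from 48 to 238 reads. The difference was -0.94 ± 0.43 (SE; limma, adjusted p = 0.861). Tac1 stood at 9.89, 20.8, 16.1 and 12.1 FPKM in the 3xD colons, against 9.38, 7.24, 11.2 and 14.5 FPKM in the minusD colons. The Tac1 groups overlapped, with a difference of 0.43 ± 0.26 (SE; limma, adjusted p = 0.885). Kit differed by 0.19 ± 0.20 (SE; limma, adjusted p = 0.923), Ano1 by -0.38 ± 0.25 (SE; limma, adjusted p = 0.887) and S100b by 0.26 ± 0.33 (SE; limma, adjusted p = 0.935).

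**Figure D5:**
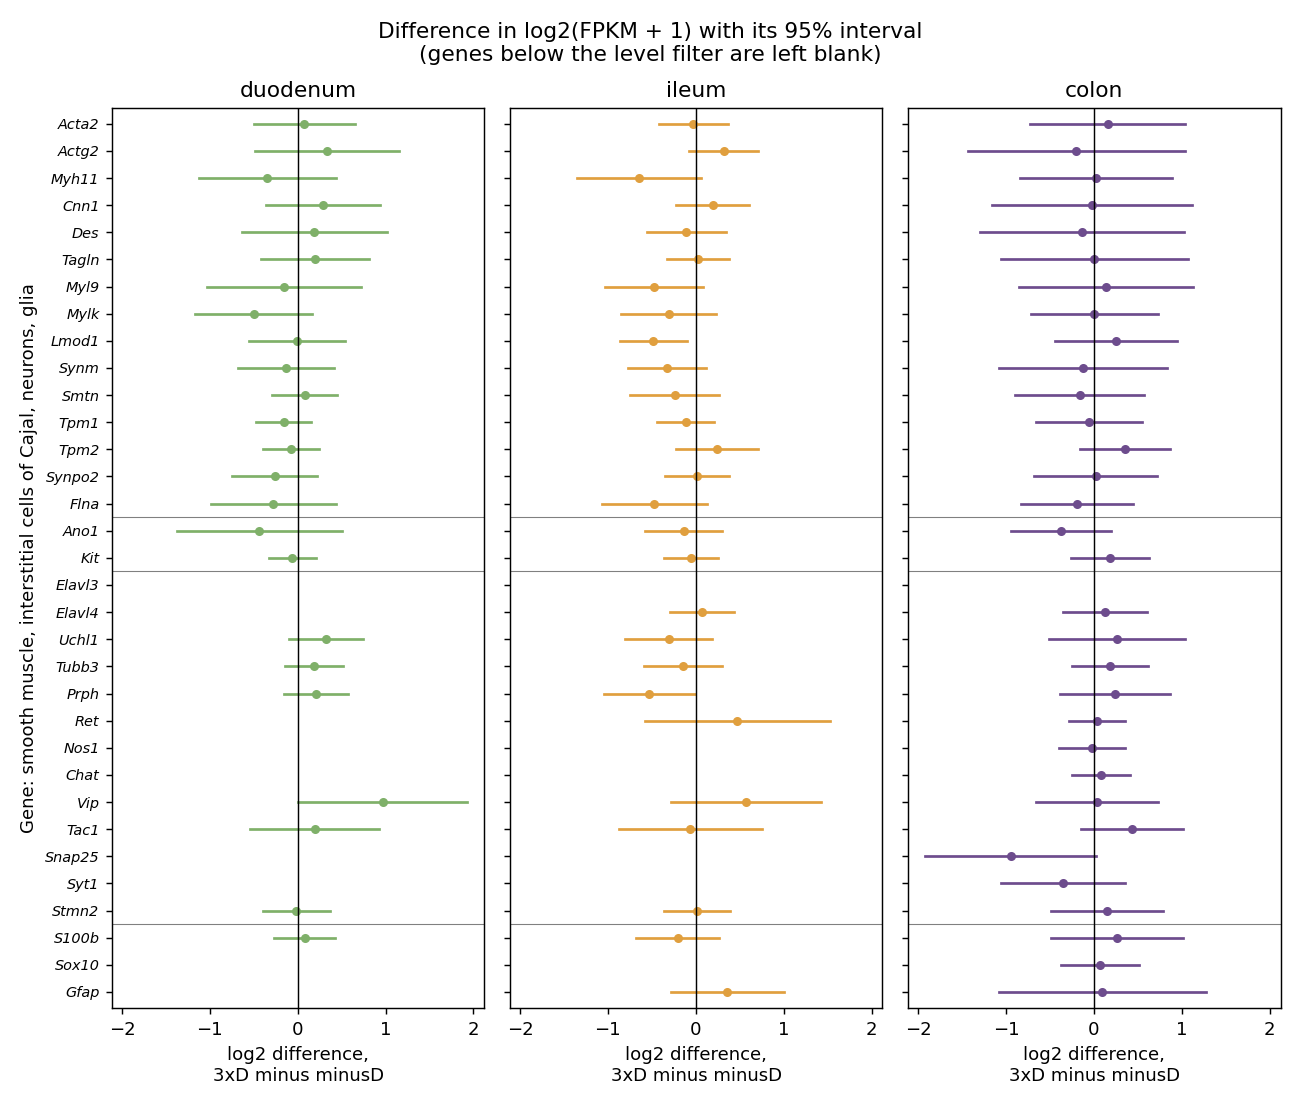
Difference in log2(FPKM + 1), 3xD minus minusD, with its 95% interval from limma, for each gene tested in the duodenum (24), ileum (27) and colon (32); blank rows are genes below the level filter. The intervals cross 0 except for duodenal Vip and ileal Lmod1 and Prph, and those of muscle genes are widest in the colon.

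The response to calcitriol was also compared between regions, in a fit of 6 group means over 23 libraries. None of the 32 members tested was called for duodenum minus colon, ileum minus colon or duodenum minus ileum, and 0% of 13235 genes were called in each. At an unadjusted p under 0.05 there were 1, 2 and 1 members, against 1.96%, 3.37% and 4.53% of all genes. The smallest p was that of Snap25 for ileum minus colon, at 1.67 ± 0.52 (SE; limma, adjusted p = 0.970), and the listed zeros above enter it. Leaving out each number in turn gave 1.30 to 2.27 for Snap25, and a fit without all its zeros was not run. Prph followed, at -0.76 ± 0.35 for ileum minus colon (adjusted p = 0.970) and 0.73 ± 0.35 for duodenum minus ileum (adjusted p = 0.863). These comparisons share libraries.

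The column names carry either serial numbers (3xD 1 and the 3 Vehicle libraries) or 4-digit ones, and muscle genes tended to be lower in the 4-digit libraries. With treatment in the same fit, the coefficient of 4-digit minus serial was negative for 15 of 15 muscle genes in the duodenum, 14 of 15 in the ileum and 14 of 15 in the colon, with medians of -0.67, -0.27 and -0.78. Among all genes it was positive for 51%, 50.8% and 50.5%. Neuron genes had medians of -0.30, -0.16 and -0.24, with 6 of 6, 5 of 8 and 8 of 12 genes negative. In the ileum, which has no 4-digit minusD library, the coefficient compares 3 3xD libraries with 3xD 1 alone. In the duodenum and colon 3xD 1 is the lone serial 3xD library and minusD5718 the lone 4-digit minusD library. Of these, 3xD 1 had the highest summed muscle level of both regions, so the coefficients lean on single libraries. After adjustment 0 members were called in each region, against 0.256%, 0% and 0.149% of all genes. At an unadjusted p under 0.05, 9 of 15 muscle genes were lower in the duodenum, 1 of 15 in the ileum and 5 of 15 in the colon, against 3.22%, 1.21% and 10.9% of all genes on that side. Des had -1.04 ± 0.25 in the duodenum (SE; limma, adjusted p = 0.319) and -1.20 ± 0.46 in the colon (adjusted p = 0.152). The stomach markers of the duodenum divide the same libraries, and in the colon recovered depth does too, at 14459914 to 22808420 reads in 4-digit and 26761715 to 29418797 in serial libraries. What part these have in the muscle values was not tested.

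Within the serial libraries alone, 3xD 1 exceeded the mean of the Vehicle libraries for 15 of 15 muscle genes in the duodenum (median 0.36, log2 scale), 9 of 15 in the ileum (0.07) and 14 of 15 in the colon (0.73). Within the 4-digit libraries alone, the 3 3xD libraries exceeded minusD5718 for 9 of 15 in the duodenum (median 0.09) and 10 of 15 in the colon (0.06). Each of these comparisons has 1 library on one side and so no replicate check, and the ileum has no 4-digit minusD library.

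Related genes outside the 33 gave the same counts of 0 calls. Of 32 other smooth muscle genes, 24, 28 and 29 were tested in the duodenum, ileum and colon, and at an unadjusted p under 0.05 there were 1, 5 and 2, against the 9.4%, 5.84% and 5.85% of all genes given above. The difference was positive for 13, 11 and 19 of those tested, against 51.9%, 51.7% and 47.3% of all genes. Of the 5 in the ileum, 3 were higher and 2 lower in 3xD, and the median of the ileal list was -0.046. Cav1, the caveolar protein, and Hspb6, a small heat shock protein of muscle, were the 2 with the smallest p in the ileum, at 0.49 ± 0.16 and 0.52 ± 0.18 (SE; limma, adjusted p = 0.706 for both). Of the other enteric neuron genes, 11, 13 and 19 were tested, and the difference was positive for 8, 3 and 13 of them. At an unadjusted p under 0.05 there were 1, 1 and 1. Cartpt, a neuropeptide precursor, was the one in the duodenum and in the ileum, at 0.31 ± 0.12 and 0.96 ± 0.19 (adjusted p = 0.514 and 0.706). Other glial genes had 1 such gene in the duodenum, Erbb3, a neuregulin receptor also made by epithelium, at -0.87 ± 0.36 (adjusted p = 0.526), and 0 in the ileum and colon.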

How the data were processed

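RNA-seq libraries of duodenum, ileum and colon were analysed as the FPKM values the authors deposited, 1 table per region with 21441 genes. Per the labels' protocols, libraries came from poly(A) RNA and CLC Genomics Workbench did the mapping; the submitters' processing notes also name mm9, kallisto 0.45.0, DESeq 1.14.0 and DESeq2 without a role. Median-ratio rescaling changed nothing, since every library of a table had 1 common factor.

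The ileum table with 8 libraries repeats the duodenum in 171528 of 171528 values. The ileum was therefore read from the table with 7 libraries, 4 against 3 in place of the 4 against 4 of the labels. Vehicle columns were counted as minusD, the sole group set against 3xD in the table names. The columns are not tied to the labels' replicates, so sex and age could not be assigned. Nothing states separate cultures or litters, and p-values measure the spread between these samples.

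Each gene reaching 1 FPKM in 3 or more libraries of a region was tested two-sided on log2(FPKM + 1), a pseudocount of 1. The tool was limma 3.58.1, with a trended eBayes step, under R 4.3.3; Benjamini-Hochberg adjustment ran over all genes and calls needed a value under 0.05. A fold on this scale understates changes of low genes. Interactions used 1 fit of 6 group means over 23 libraries. The script was tested on simulated data. Whole reads (tolerance 0.0001) came back for 83.6% of duodenal, 83.5% of ileal and 83.4% of colonic genes seen in 3 or more libraries; they set the depth, which covers these genes only, and fed voom, an alternative chosen after seeing the data. Positions are gencode vM1 on NCBIM37, the assembly of mm9.

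Members, roles and lists were chosen with earlier results of these data known. The rule for named genes accounted for all 33 by role, with every library for Actg2, Acta2, Myh11, Des, Kit, Ano1, Elavl4, Prph, Vip, Nos1, Chat, S100b, Sox10 and the 2 smallest p per region, and up to 2 genes per other list and region. Values of Ret and Gfap outside it were singled out after they were seen. The lists of fibroblast, vessel, mesothelial, striated muscle, epithelial, stomach, pancreas, adipocyte and immune markers had 0 genes called, and their summed levels stand beside results they move with. Alternatives covered pseudocounts of 0.1 and 0.5, filters, quantile and median-ratio rescaling, the 7-library tables, the form of the column number, and each library left out.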

Additional observations from a re-analysis of the deposited data

Results flagged for a closer look

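In 14 of 164 groups of 4 libraries, the highest or lowest library stood apart from the others by Dixon's criterion at 95%, where chance gives about 1 in 20. In 2 of the 14 the other libraries were all at 0, so any value above 0 stands apart, which leaves 12. The library 3xD5720 stood apart for Ret, at 1.77 FPKM in the duodenum (next 0.727) and 8.89 FPKM in the ileum (next 1.87), and for Smtn in the ileum, at 6.81 FPKM below the others at 9.25 to 9.37. Among 3xD duodena, 3xD5734 was apart for Elavl4 at 0 FPKM (next 0.408). The 2 groups with the others at 0 were the same duodena for Snap25, at 0.532 FPKM in 3xD5734, and for Syt1, at 0.0266 FPKM or 2 recovered reads in 3xD5711. Among 3xD ilea, 3xD 1 was apart for Synm at 11.8 FPKM (next 7.96) and 3xD5734 for Tubb3 at 1.88 FPKM (next 2.72). Vehicle 2 was apart in 5 minusD groups: colonic Myl9 at 507 FPKM (next 291), colonic Tpm2 at 11.2 FPKM (next 6.77), colonic Tubb3 at 8.33 FPKM (next 5.24), duodenal Mylk at 61.9 FPKM (next 53.8) and duodenal Syt1 at 0.190 FPKM (next 0.0136). Duodenal Vehicle 1 was apart for Elavl4, at 0.145 FPKM below the others at 0.332 to 0.348. The causes were not tested.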

How the results depend on the processing

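The count of members called for 3xD against minusD stayed at 0 in each region under every alternative run for it, leaving out each library included. The count for the differences between regions stayed at 0 under a pseudocount of 0.1, median-ratio rescaling, a replicate block by column number and leaving out each number. That for the form of the column number stayed at 0 under a pseudocount of 0.1 and median-ratio rescaling, the 2 alternatives run for it. For 3xD against minusD, no paired analysis was run, since the groups are different animals and the labels state no pairing between them. For the differences between regions, the replicate block by column number gave a smallest adjusted p of 0.656. Same-numbered libraries deviated together (correlation over 0.1) in 6 of 7 pairs for duodenum and ileum, 7 of 8 for duodenum and colon and 6 of 7 for ileum and colon. Their correlations ran from -0.052 to 0.588. Differently numbered libraries were not compared, so these counts have no baseline and cannot show whether a number marks 1 mouse. Log2 differences of uncalled genes changed sign as follows, and the causes were not tested. With the form of the column number as a covariate, duodenal Myh11 was 0.093, ileal Acta2 0.16, Des 0.10, Vip -0.27 and S100b 0.19, and colonic Actg2 0.33, Des 0.46, Kit -0.046 and Nos1 0.063. With quantile normalization, colonic Myh11 was -0.06 and Nos1 0.022. In the authors' 7-library tables, duodenal Acta2 was -0.034 and Des -0.10, and colonic Myh11 -0.062, Vip -0.13 and Sox10 -0.055. Leaving out 1 library at a time gave ranges across 0: in the duodenum -0.076 to 0.30 for Acta2 and -0.10 to 0.44 for Des; in the ileum -0.11 to 0.091 for Acta2, -0.26 to 0.008 for Des, -0.12 to 0.047 for Kit, -0.31 to 0.033 for Ano1 and -0.006 to 0.12 for Elavl4; in the colon -0.58 to 0.30 for Actg2, -0.14 to 0.50 for Acta2, -0.18 to 0.40 for Myh11, -0.55 to 0.29 for Des, -0.14 to 0.22 for Vip, -0.12 to 0.084 for Nos1, -0.029 to 0.58 for S100b and -0.057 to 0.20 for Sox10. Rescaling moved the median of all genes by under 0.1. Limits: sex and age could not be fitted, and neuron genes in the duodenum mostly lie near or below the level filter.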
